A study of Mus musculus with 18 samples.

Results

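The bone marrow of 1-week-old mice 24 h after 2 Gy of gamma rays is described here by 3 arrays, set against the 3 arrays of unirradiated marrow of the same age, 6 of the 18 arrays of the study. The members were taken from the sample labels. All mice were C3H females, a common inbred laboratory strain, and the radiation was delivered at 0.6 Gy/min. The 1-week controls received no radiation, and further groups of 3 arrays each hold 1-week marrow 6 h after 2 Gy, 8-week controls, and 8-week marrow 6 h and 24 h after 2 Gy. Each array carries the RNA of whole marrow, so every value is an average over all cells that were collected. In such bulk samples fewer cells of a type and less RNA per cell cannot be told apart. The labels give 3 mice for each time, and 1 array was taken as 1 mouse.

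Ionising radiation breaks DNA, and the breaks stabilise the transcription factor p53, which switches on genes for cell-cycle arrest, repair and cell death. Developing B lymphocytes, which cut and rejoin their own DNA to build antibody genes, are among the most radiosensitive cells of the body, whereas mature granulocytes and macrophages survive such doses. Marrow macrophages engulf dying cells and recycle the iron of red cells. Marrow stromal cells make the signals, such as Cxcl12, that hold and feed blood progenitors. At 1 week of age the marrow is still expanding together with the growing skeleton.

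Values are given as scaled log2 signal, the log2 signal of a probe minus the 75th percentile of its array, so that 0 lies at that percentile and a difference of 1 is a 2-fold change. Differences are between group means, with the standard error (SE) of the fit. Because of the scaling, a higher or lower value is relative to the rest of its array and gives no absolute amount of RNA. Levels of different genes are not comparable, since probes differ in brightness. A gene was called when limma's p-value, adjusted over all 11888 tested genes by Benjamini and Hochberg, was under 0.05, and "rose" and "fell" are used of called genes only. Between 51.05 and 62.08% of probes were well above background on each of the 18 arrays. All 10 marrow markers were detected on each of the 6 arrays, among them Ltf of neutrophils, Alas2 of red cell precursors and Vpreb1 of B-cell precursors.

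1 control array stands apart. Over all tested genes, 1-week control replicate 2 correlated with the other 2 controls at r = 0.978 and 0.980, against 0.995 between those 2 and 0.994 to 0.996 among the 24 h arrays. The mean of 26 skeletal muscle genes was -1.47, 4.10 and -0.73 on the 3 controls and -1.60, 0.01 and -0.20 on the 3 arrays at 24 h. The mean of 11 cartilage genes was -2.27, 3.59 and -1.63 on the controls and -2.24, -2.23 and -1.02 at 24 h. Replicate 2 was thus 5.2 higher than the mean of the other controls for muscle and 5.54 higher for cartilage. Col2a1, the main collagen of cartilage, read -0.47, 8.29 and 0.80 on the controls, and Acta1, the actin of skeletal muscle, read -1.63, 6.27 and -0.30. The lists of stroma, collagens, cartilage and muscle are given with and without this array.

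At 24 h 4278 of the 11888 genes (36%) differed from control, 2193 higher (18.4%) and 2085 lower (17.5%). Changes of at least 2-fold were fewer, with 179 genes higher (1.51%) and 211 lower (1.77%). Without control replicate 2 the counts were 1982 higher (16.7%) and 2084 lower (17.5%). Slide 2 of the arrays carried 24 h replicate 1 beside control replicate 2, and slide 3 carried 24 h replicate 2 beside control replicate 3. Of the 4278 called genes, 4247 had the same sign on slide 2 and 4275 on slide 3, where these arrays are also part of the fit. With about 1 gene in every 3 called, a list of genes has to be read against these shares, which the plot of gene lists shows as dashed lines.

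**Figure D1:**
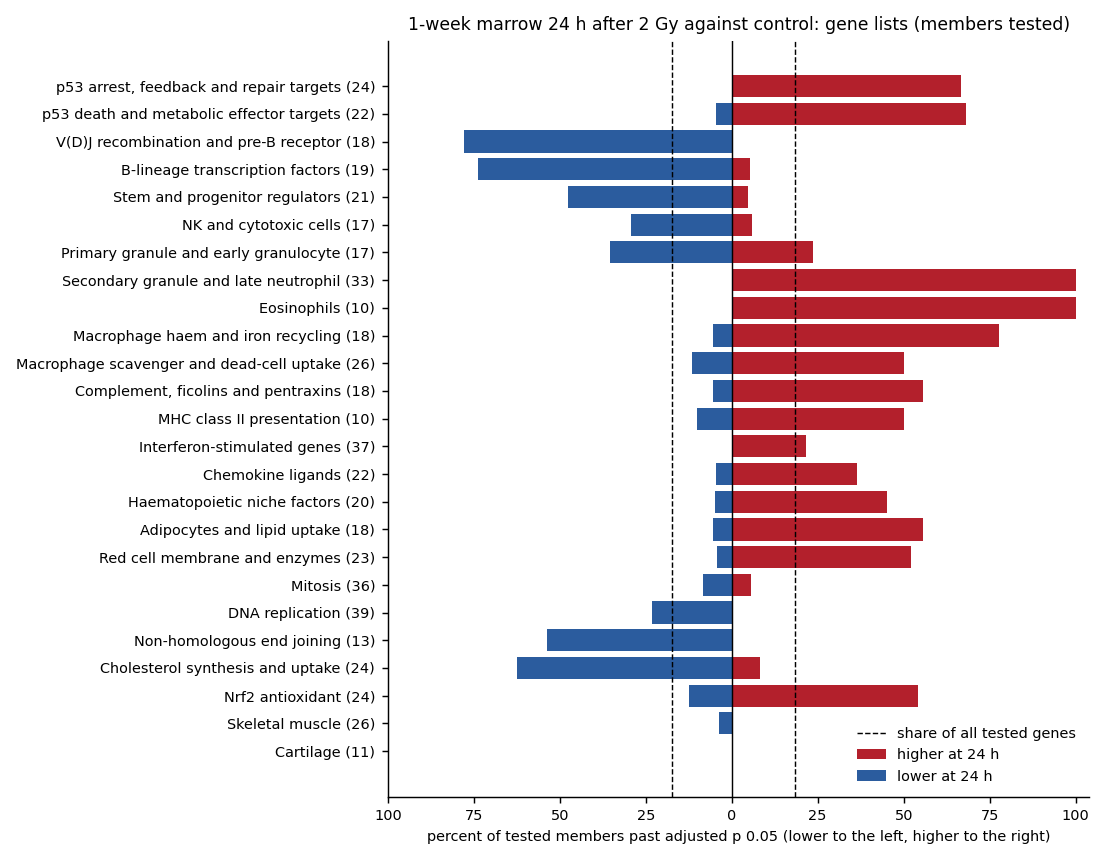
Share of the tested members of 25 gene lists that passed an adjusted p of 0.05 at 24 h against control, with higher genes as red bars to the right and lower genes as blue bars to the left, in percent. The number of tested members is in brackets, and the dashed lines mark the shares over all tested genes, 18.4% higher and 17.5% lower. The late neutrophil and eosinophil bars reach 100% to the right, and the bar of the V(D)J and pre-B receptor list reaches 77.8% to the left.

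The p53 program was still high at 24 h. Of 24 tested targets for arrest, feedback and repair, 16 rose and none fell (1 fell without control replicate 2), with a median difference of 0.57 against -0.011 over all tested genes. Of 22 tested targets for death and metabolism, 15 rose, with a median of 0.62. The only fall there was Fdxr, a mitochondrial reductase, by 0.42 on the log2 scale (adjusted p = 9.71e-05, limma, named after its value was seen), and without control replicate 2 there were 2 falls.

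Zmat3, which encodes an RNA-binding protein of the p53 pathway, read -1.49, -1.56 and -1.43 in the controls and 1.69, 1.56 and 1.60 at 24 h. The groups lie far apart and their replicates close together, with a difference of 3.11 (SE 0.07), which is 8.65-fold, and an adjusted p of 6.61e-14 (limma). Phlda3, a repressor of Akt signalling, read 2.25, 2.18 and 2.15 in the controls and 4.80, 4.82 and 4.80 at 24 h, a rise of 6.12-fold. Ccng1, which encodes cyclin G1, read 0.56, 0.78 and 0.51 against 3.01, 2.84 and 2.83, a rise of 4.85-fold, and a further probe of the gene rose by 1.95. Cdkn1a, the p21 inhibitor of cyclin-dependent kinases, read 0.32, 0.61 and 0.12 in the controls and 2.89, 2.58 and 2.44 at 24 h. Its spread was wider than that of the 3 genes before it, and the rise of 2.29 (SE 0.16, 4.89-fold) had an adjusted p of 2.39e-08 (limma). Mdm2, the ubiquitin ligase that removes p53, rose by much less, from 1.27, 1.36 and 1.30 to 1.86, 1.99 and 1.98. That difference was 0.63 (SE 0.09, adjusted p = 2.64e-05, limma), and its groups did not overlap either. Inka2, an inhibitor of Pak4 kinase that was well above background on 2 of 3 controls, rose by 2.20 and Psrc1, a spindle protein, by 1.34.

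Among the genes for death, Bbc3, which encodes the killer protein Puma, read 2.98, 2.99 and 2.94 in the controls and 4.18, 4.03 and 4.23 at 24 h. Bax, which opens the outer membrane of mitochondria, rose by 0.64 (SE 0.09) from 2.23, 2.15 and 2.34. Perp, a membrane protein of cell junctions, read -2.32, -1.91 and -2.26 against -0.40, -0.05 and -0.05. In all 3 genes every irradiated array lay above every control. Dglucy, a mitochondrial enzyme of glutamate metabolism, rose by 2.13 and Dcxr, a sugar reductase, by 1.34. The gene Trp53 itself, which encodes p53, differed by 0.27 (adjusted p = 0.0466, limma). That call was lost without control replicate 3 (0.11) and without any 1 of the 3 arrays at 24 h (0.25 to 0.29), and a fit of the 6 compared arrays alone did not call it either (adjusted p = 0.164).

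The 24 h arrays were also set against the 6 h arrays, which uses the same 24 h arrays but no control. There 4301 genes (36.2%) differed, 2207 higher at 24 h (18.6%) and 2094 lower (17.6%). At least 2-fold were 0.85% of genes higher and 1.05% lower. Of the 24 arrest, feedback and repair targets 20 were lower at 24 h than at 6 h, with a median of -0.48, and of the 22 death and metabolic targets 12 were lower. Bbc3 fell by 1.14 from 5.43, 5.26 and 5.16 at 6 h, and Ccng1 by 0.99 from 3.95, 3.90 and 3.80. Bax fell by 0.88 from 3.79, 3.69 and 3.81, and Phlda3 by 0.65. Perp went the other way, being 0.52 higher at 24 h than at 6 h (adjusted p = 0.00588, limma). Cdkn1a read 3.06, 2.68 and 2.31 at 6 h, a range that overlaps the 24 h arrays, and its difference of -0.04 (adjusted p = 0.869, limma) did not pass.

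Promoter letters of these genes were read from RefSeq (build GRCm38.p6) to show where the p53 half-site consensus, a palindromic motif, stands before their start. Windows held the 250 bases before each listed start, and both strands were covered by the palindrome. Of 27025 genes with a window, 2216 (8.2%) held at least 1 match. Among the tested genes of both p53 lists 11 of 38 with a window held one (28.9%), and among those that rose 8 of 25 (32%). A match is a description of letters and no evidence of binding. The matches of 5 genes that rose and are described above are given with their flanks, on the strand of the gene, with the half-site in capitals.
Ccng1: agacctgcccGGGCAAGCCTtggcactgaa
Cdkn1a: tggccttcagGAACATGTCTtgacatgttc
Cdkn1a, further match: tcctgggtggGGACTAGCTTtctggccttc
Mdm2: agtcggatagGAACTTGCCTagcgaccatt
Bax: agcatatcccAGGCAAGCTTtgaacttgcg
Inka2: ctgtctgcccGGGCTTGTCTgccagcaggg
They lie on the minus strand at chr11:40755452-40755481 for Ccng1, on the plus strand at chr17:29090918-29090947 and chr17:29090896-29090925 for Cdkn1a, and on the minus strand at chr10:117710925-117710954 for Mdm2. Those of Bax (minus strand) and Inka2 (plus strand) lie at chr7:45467080-45467109 and chr3:105705367-105705396. From the first base of the half-site to the start there are 185, 51, 73, 186, 201 and 81 bases in the order printed.

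**Figure D2:**
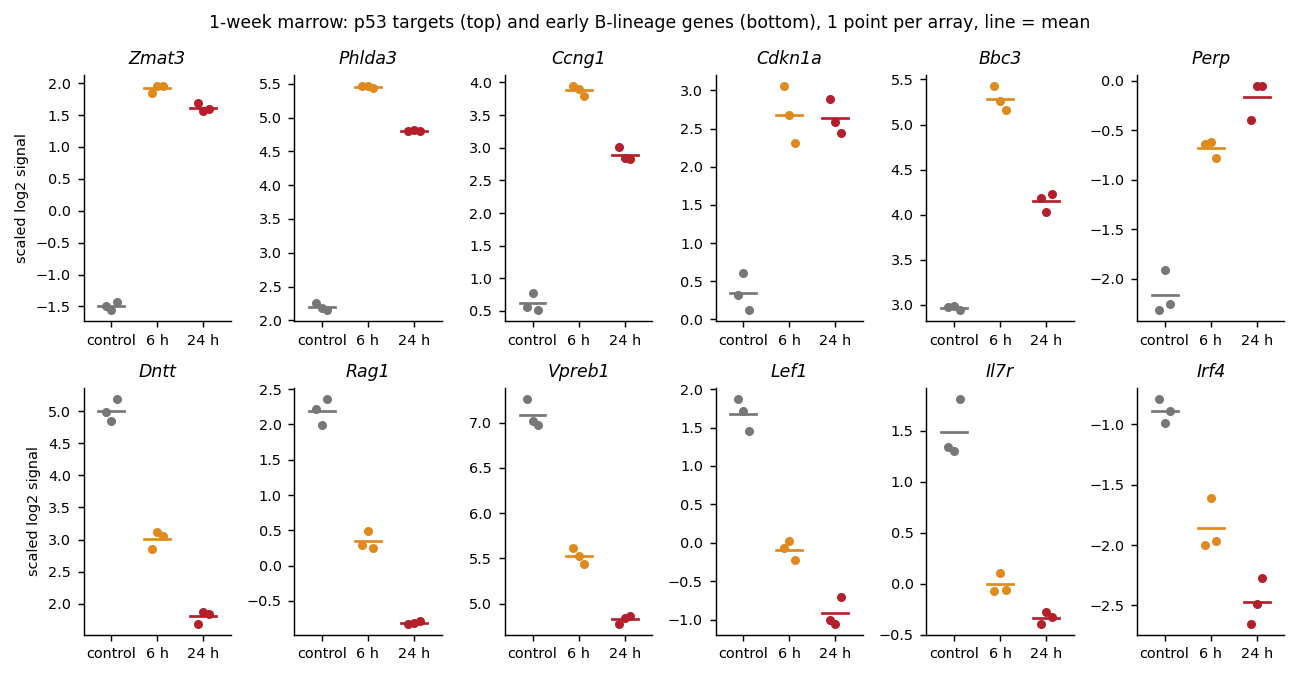
Scaled log2 signal of 6 p53 targets (top row) and 6 early B-lineage genes (bottom row) on the 1-week control, 6 h and 24 h arrays, 1 point per array, with a line at the mean of each group of 3. All 24 h points of the top row lie above the controls and all of the bottom row below them, and the B-lineage genes are lower at 24 h than at 6 h.

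Genes of B-cell precursors fell. Of 18 tested genes for V(D)J recombination and the pre-B receptor, 14 fell and none rose, with a median of -1.64, and 14 members had no overlap between groups in that direction (23.5% of all genes). Of 19 B-lineage transcription factors 14 fell and 1 rose. The counts of falls in both lists were the same without control replicate 2.

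Dntt, the terminal transferase that adds bases at the joints of antibody genes, read 4.99, 4.85 and 5.19 in the controls and 1.69, 1.87 and 1.84 at 24 h. The fall of 3.21 on the log2 scale (SE 0.10, 9.25-fold) had an adjusted p of 2.62e-12 (limma), and 2 further probes of the gene gave -2.94 and -3.28. Rag1, a subunit of the enzyme that cuts antibody genes in recombination, read 2.22, 1.99 and 2.36 against -0.82, -0.81 and -0.79, a 7.98-fold fall. Vpreb1, a part of the surrogate light chain of the pre-B receptor, read 7.26, 7.02 and 6.97 against 4.78, 4.84 and 4.86. In each of the 3 genes the 24 h arrays lie close together and far below the controls. Blnk, the adaptor of the pre-B receptor, fell by 1.59 and Vpreb3 by 1.68. Grb7, an adaptor protein, read 0.02, -0.23 and -0.43 in the controls and -4.67, -2.40 and -4.09 at 24 h, where 2 of 3 arrays were well above background. Smtnl2, a smoothelin-like protein that early B cells express, read 0.59, 1.22 and 0.47 against -2.73, -2.16 and -2.41.

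Among the transcription factors, Lef1, the Wnt-responsive factor of pro-B cells, read 1.87, 1.71 and 1.46 in the controls and -1, -1.05 and -0.70 at 24 h, a 6.04-fold fall. Foxo1, which drives Rag expression, fell by 1.35 and its further probe by 1.63. Irf4, which ends the pre-B cycling phase, read -0.79, -0.99 and -0.89 against -2.65, -2.49 and -2.27. Pou2af1, a B-cell coactivator, fell by 1.62, Sox4 by 1.38 and Myb, which lymphoid and myeloid progenitors share, by 0.84.

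Genes of the B-cell surface were divided. Of 19 tested, 5 rose and 6 fell. Il7r, the receptor for the growth factor of B precursors, read 1.34, 1.30 and 1.81 in the controls and -0.39, -0.28 and -0.33 at 24 h. Fcer2a, the low-affinity IgE receptor of mature B cells, was not well above background on any control and was at least 2.07-fold higher at 24 h (adjusted p = 3.73e-07, limma). At 6 h it was higher still, at -2.50, -2.03 and -2.24 against -3.23, -3.66 and -3.13 at 24 h. Cd79a, a part of the B-cell receptor, read -2.02, -2.08 and -2.21 against -2.14, -2.80 and -2.88, which did not pass (difference -0.50, SE 0.29, adjusted p = 0.198, limma). Of 10 plasma cell genes 2 rose and 2 fell, and 4 fell without control replicate 2. Mzb1, an endoplasmic reticulum protein of antibody-making cells that marrow B precursors also express, fell from 3.81, 3.59 and 3.77 to 2.04, 1.99 and 2.11. Jchain, which joins secreted antibodies, rose from -2.03, -2 and -2.10 to -0.52, -0.53 and -0.32.

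The fall went on after 6 h. Of the 18 V(D)J and pre-B genes 11 were lower at 24 h than at 6 h, and of the 19 transcription factors 10. Dntt was 1.20 lower than at 6 h (2.85, 3.12 and 3.05), Rag1 1.15 lower and Vpreb1 0.71 lower, with no overlap between the arrays of the 2 times. The list mean over the V(D)J and pre-B genes was 2.46, 2.39 and 2.41 in the controls, 1.20, 1.35 and 1.20 at 6 h and 0.71, 0.88 and 0.77 at 24 h.

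BCL2 family genes, which set the balance of survival and mitochondrial death, rose in 8 and fell in 2 of 15 tested. Bmf, a killer protein of the family, read 1.68, 1.5 and 1.60 in the controls, 0.82, 1.13 and 0.89 at 6 h and -0.05, 0.03 and 0.19 at 24 h. The decline amounts to 1.54 (SE 0.08, adjusted p = 5.52e-10, limma) against control, while further probes of Bmf gave -1.22 and -0.28. Bcl2a1b, a survival protein of myeloid cells, rose from 1.15, 1.10 and 1.15 to 2.34, 2.39 and 2.45. Bcl2l12 was the second fall, by 0.60.

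Genes of DNA end joining fell. Of 13 tested genes of non-homologous end joining, which reseals double-strand breaks and the cuts of V(D)J recombination, 7 fell and none rose, with a median of -0.31. Lig4, the ligase of the pathway, read 0.21, 0.13 and 0.29 in the controls and -0.77, -0.61 and -0.88 at 24 h, where no array overlaps. Parp1, a sensor of DNA breaks, fell by 0.74 and Xrcc6, which encodes the Ku70 end-binding protein, by 0.53. Of 23 genes of homologous recombination only Fanca fell and Blm rose, both calls that single arrays removed. The fall of Fanca (-0.26) was not called without control replicate 3 or 24 h replicate 3. The rise of Blm (0.30) was not called without control replicates 1 or 2 or 24 h replicates 1 or 2.

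Genes of cell division stood near control at 24 h and below their 6 h level. Of 36 tested mitosis genes 2 rose and 3 fell against control, with a median of 0.00, and the falls were 1 without 24 h replicate 3. Against 6 h 29 of the 36 were lower and none higher, with a median of -0.37. The list mean was 3.14, 3.11 and 3.27 in the controls, 3.61, 3.53 and 3.56 at 6 h, and 3.15, 3.25 and 3.13 at 24 h. Ube2c, the ubiquitin-conjugating enzyme of mitotic exit, read 5.22, 5.23 and 5.15, then 6.6, 6.42 and 6.28, then 5.66, 5.66 and 5.51. Ccnb1, which encodes cyclin B1, differed from control by -0.06 (SE 0.09, adjusted p = 0.594, limma). Of 39 DNA replication genes 9 fell and none rose, but 2 fell without 24 h replicate 3 and 3 without control replicate 3. Pold1, the catalytic subunit of polymerase delta, fell by 0.41 and E2f1, the factor that turns on replication genes, by 0.32.

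Genes of stem and progenitor cells fell in 10 and rose in 1 of 21 tested, the rise being lost without control replicates 1 or 3 or without 24 h replicates 2 or 3. Cd93, a receptor of early progenitors and B precursors, read 4.54, 4.30 and 4.46 in the controls and 3.50, 3.28 and 3.35 at 24 h. Cd27, a costimulatory receptor of multipotent progenitors and lymphocytes, read -1.25, -1.33 and -1.23 against -2.50, -2.42 and -2.36. Hlf, a transcription factor of stem cells, fell by 0.76 from -1.53, -1.60 and -1.5. The irradiated arrays lie below every control in all 3. Cd93 and Cd27 were lower than at 6 h as well, by 0.41 and 0.59. Sox4 and Myb belong to this list and to the B-lineage list, so the falls of both lists share members.

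NK and cytotoxic cell genes fell in 5 and rose in 1 of 17 tested. Gzma, a granzyme of killer cells, read -0.70, -1.10 and -1.04 in the controls, -1.41, -1.40 and -1.68 at 6 h and -2.41, -2.43 and -1.85 at 24 h. Nkg7, a granule protein of NK cells and early granulocytes, fell by 0.51 and Klrb1c, the NK1.1 receptor, by 0.91, being well above background on 1 of 3 arrays at 24 h. The call of Klrb1c was lost with the normexp background correction (-0.20) and with the mean over all its probes (-0.50). Tbx21, the T-bet factor, fell by 0.60. The chemokine gene Ccl5 was the rise, by 0.37. T-cell genes did not move as a group, with 4 higher and 5 lower of 17 (3 lower without control replicate 1 or 3). Zap70 and Lck, kinases of the T-cell receptor, fell by 0.68 and 0.43. Cd3e, a part of the receptor, differed by 0.63 (SE 0.36, adjusted p = 0.186, limma).

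All 33 tested genes of secondary granules and late neutrophils rose, with a median of 0.73 and a range of 0.38 to 1.24, and all 33 had no overlap between groups (24.6% of all genes). All 10 eosinophil genes rose too, with a median of 0.94. These counts were the same without control replicate 2. Itgb2l, an integrin chain of late neutrophils, read 1.00, 0.84 and 0.63 in the controls and 2.05, 2.04 and 2.08 at 24 h. Ltf, lactoferrin, read 7.64, 7.63 and 7.30 against 8.45, 8.35 and 8.52, and Itgam, the CD11b integrin, rose by 0.92. Of eosinophil genes, Alox15, a lipoxygenase, read 0.21, 0.59 and 0.20 against 1.74, 2.05 and 1.86. Prg2, the major basic protein of the granule, rose from 7.99, 8.17 and 7.83 to 8.95, 8.96 and 9.02, and the ribonucleases Ear1 and Ear10 by 1.12 and 1.22. Ccr3, the eotaxin receptor, rose by 1.25.

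The 6 h arrays already stood above the controls. The late neutrophil list mean was 4.11, 4.06 and 3.85 in the controls, 4.80, 4.64 and 4.58 at 6 h and 4.74, 4.70 and 4.84 at 24 h, so that the irradiated groups overlap. Ltf differed between 6 h and 24 h by 0.14 (adjusted p = 0.232, limma), and Alox15 by 0.17 (adjusted p = 0.367). Earlier granulocyte genes were divided, with 4 higher and 6 lower of 17. Mpo, the peroxidase of primary granules, read 8.20, 8.03 and 8.08 in the controls and 7.79, 7.81 and 7.65 at 24 h, a fall of 0.35 (SE 0.07, adjusted p = 0.000858, limma). Serpinb1a, the elastase inhibitor, and Hk3, a hexokinase, rose by 0.50 and 0.68. Of 12 mast cell and basophil genes 3 rose, among them Il4 by 1.01, from -3.27, -3.26 and -3.46. The single fall, Cma1 by 0.42, was lost without control replicates 1 or 3 or 24 h replicates 1 or 2, and was joined by another without control replicate 2.

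**Figure D3:**
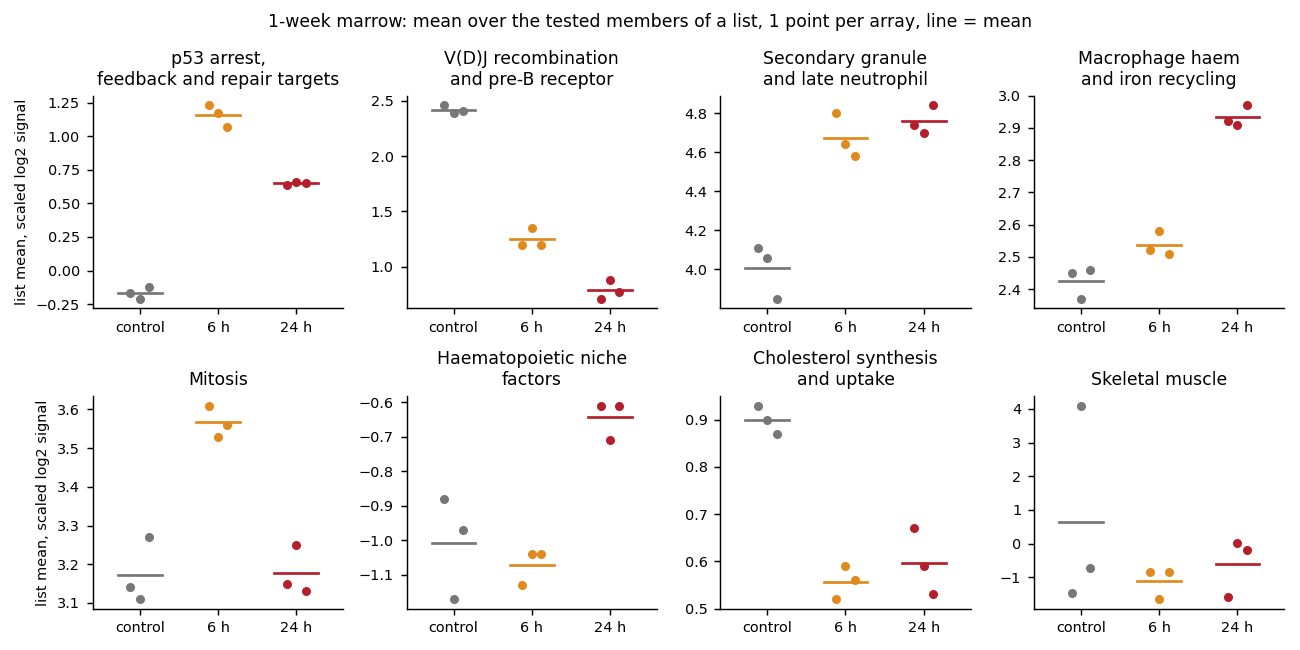
Mean scaled log2 signal over the tested members of 8 gene lists on the 1-week control, 6 h and 24 h arrays, 1 point per array and a line at the mean of each group of 3. The macrophage and niche lists rise between 6 h and 24 h, the mitosis list returns to the control range, and the muscle list shows control replicate 2 at 4.10, with the other 8 arrays at or under 0.01.

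Macrophage genes rose between 6 h and 24 h. Of 18 tested genes of haem and iron recycling 14 rose and 1 fell against control, with a median of 0.47, and 12 rose without control replicate 2. Against 6 h 9 of the 18 were higher at 24 h and 1 lower. The list mean was 2.45, 2.37 and 2.46 in the controls, 2.52, 2.58 and 2.51 at 6 h and 2.92, 2.91 and 2.97 at 24 h. Hmox1, the oxygenase that breaks haem open, read 2.89, 3.06 and 2.89 in the controls, 2.86, 3 and 3.01 at 6 h, and 4.77, 4.69 and 4.74 at 24 h. The control and 6 h arrays overlap, and the 24 h arrays stand 1.78 above control (SE 0.09, 3.44-fold, adjusted p = 5.41e-10, limma). Spic, the transcription factor of iron-recycling macrophages, rose by 0.95 from 1.77, 1.61 and 1.78, and Slc40a1, the iron exporter ferroportin, by 0.71 from 4.05, 3.95 and 4.18. Slc48a1, a haem transporter, rose by 0.51, a level already reached at 6 h (4.84, 4.72 and 4.76 against 4.78, 4.71 and 4.74).

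Receptors of the macrophage surface, which take up dead cells and debris, rose in 13 and fell in 3 of 26 tested. With 1 array left out there were 9 to 12 rises and 2 to 3 falls. Compared with 6 h, 13 were higher and 3 lower, or 11 to 12 and 0 to 4 with 1 array left out. Timd4, which binds the phosphatidylserine of dying cells, read -2.61, -2.88 and -2.65 in the controls, -3.68, -3.84 and -3.58 at 6 h and -1.78, -1.76 and -1.83 at 24 h. Cd5l, a protein secreted by tissue macrophages, read -0.37, -0.12 and -0.16, then -1.80, -1.01 and -1.16, then 0.45, 0.98 and 0.80. Both genes lay below every control at 6 h and above every control at 24 h. Marco, a receptor for bacteria and particles, stayed near control at 6 h (0.74, 0.80 and 0.69) and rose by 1.23 at 24 h. Of 19 monocyte genes 10 rose and 1 fell against control, and 3 were higher and 5 lower than at 6 h, with a median of -0.10 between those times. Ms4a7, a membrane protein of macrophages, rose by 0.86 against control, while its 6 h arrays (-1.80, -1.61 and -1.22) lay below the controls. The fall was of F13a1, a clotting factor chain of monocytes, by 0.38 (named after its value was seen).

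Of 18 tested complement and related genes 10 rose and 1 fell against control, and 7 rose and 2 fell without control replicate 2. Against 6 h 9 were higher and 3 lower. Fcna, a ficolin that binds bacterial sugars, read 1.22, 1.01 and 1.17 in the controls, -0.61, -0.12 and -0.15 at 6 h and 1.97, 2.04 and 1.97 at 24 h. C1qb, a chain of the first complement factor, read 0.54, 0.37 and 0.31, then -1.15, -0.54 and -0.89, then 0.92, 0.91 and 0.94. Ptx3, a pentraxin released in inflammation, rose from -1.88, -1.90 and -1.98 in the controls to 1.30, 0.89 and 1.12 at 24 h. That rise was 3.02 (SE 0.31, 8.13-fold, adjusted p = 1.32e-06, limma), and a further probe gave 2.94.

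Antigen presentation by MHC class II rose in 5 and fell in 1 of 10 tested. Cd74, the invariant chain, read 1.84, 2.01 and 1.75 in the controls and 2.45, 2.49 and 2.74 at 24 h, and Ciita, the master switch of these genes, read -1.18, -1.38 and -1.70 against -0.91, -0.70 and -0.38. H2-Ab1 and H2-Aa, the chains of the presenting molecule, rose by 0.64 and 0.69. H2-Ob, a regulator of peptide loading in B cells, was not well above background on any 24 h array and was at least 1.83-fold lower, a call lost with the normexp correction. Class I genes were divided and small in size. Psmb10 and Psmb8, subunits of the immunoproteasome, fell by 0.60 and 0.50. Of 14 tested 3 rose, none of them without control replicate 3 or 24 h replicate 3, and 2 fell, or 4 without 24 h replicate 3.

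Interferon-stimulated genes hardly moved as a group. Of 37 tested 8 rose and none fell, with a median of 0.09. That count was 4 without 24 h replicate 2 or 3, 5 without control replicate 2 or 3 and 13 without control replicate 1, and up to 3 fell without control replicate 2. Rsad2, the antiviral enzyme viperin, read 5.99, 6.00 and 5.87 in the controls and 6.85, 6.71 and 6.81 at 24 h, and Ifit1, an antiviral RNA binder, rose by 0.99 from -1.73, -1.90 and -1.70.

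Of 22 tested chemokine ligand genes 8 rose and 1 fell, 8 and 1 without control replicate 2 as well. Ccl2, which draws monocytes, read -3.61, -3.76 and -3.63 in the controls, -1.57, -1.69 and -1.53 at 6 h and -2.32, -2.30 and -2.28 at 24 h. It was 1.37 above control (SE 0.11, adjusted p = 7.74e-08, limma) and 0.71 below 6 h. Ccl6, a myeloid chemokine, rose by 1.05 and Cx3cl1, the ligand of monocyte patrol, by 0.77. Cxcl10, an interferon-induced ligand, rose by 0.75 from -2.05, -2.30 and -2.17. Cxcl14, made by stroma, read 0.03, 0.19 and -0.12, then -0.22, -0.02 and 0.37 at 6 h, then 1.64, 1.25 and 1.64. Cxcl12, which retains stem cells and B precursors in the marrow, read 4.86, 4.48 and 4.86, then 4.34, 4.40 and 4.77, then 5.76, 5.48 and 5.6, and a further probe rose by 0.76. In both stromal ligands all 24 h arrays lay above every control and every 6 h array, with Cxcl12 at 0.87 above control (SE 0.16, adjusted p = 0.000388, limma) and 1.11 above 6 h. Ccl4, made by activated leukocytes, was the fall, by 0.95, with 2 of 3 arrays well above background at 24 h, and at 6 h (-2.04, -1.68 and -1.74) it had been above the controls. Ccl12 had an adjusted p of 0.0136 (limma), but no control or 24 h array was well above background for it, and the call was lost without control replicate 3 or 24 h replicate 1.

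Of 18 chemokine receptors 7 rose and 1 fell. Beside Ccr3, Ccr6, a receptor of B cells and dendritic cells, rose by 1.25 from -2.83, -2.68 and -2.90, Cxcr2, the neutrophil receptor, by 0.84 and Cx3cr1, of patrolling monocytes, by 0.60. With the mean over all probes of a gene Cx3cr1 differed by 0.32, which was not called. Ccrl2 rose by 0.36 but stood 0.61 below 6 h. The decoy receptor Ackr4, well above background on 2 of 3 controls, rose by 1.20 and Ackr3 by 0.73, the latter not called without control replicates 1 or 3 or without any 1 of the 24 h arrays. Ccr7, which guides lymphocytes to lymph nodes, fell by 0.80, and a second receptor fell without 24 h replicate 2.

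Inflammatory cytokine genes rose in 12 and fell in 3 of 23 tested, with a median of 0.54. Lta, lymphotoxin alpha, read -3.09, -2.94 and -3.20 in the controls, -2.98, -2.56 and -3.07 at 6 h and -1.56, -1.63 and -1.27 at 24 h. Il18, a macrophage cytokine, read -0.03, -0.14 and -0.10, then -0.92, -0.76 and -0.82, then 0.58, 0.55 and 0.46. Il12a, a chain of the cytokine IL-12, fell from 0.20, 0.12 and 0.27 to -1.27, -1 and -1.06, with most of the fall after 6 h (0.11, -0.05 and -0.05). Il1r2, the decoy receptor of neutrophils, rose by 0.90.

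Niche factors of blood formation rose in 9 and fell in 1 of 20 tested, and 9 rose without control replicate 2. The single fall was lost without control replicate 1 or 24 h replicate 3 and was 2 without control replicate 3. Bmp4, a growth factor of stroma and vessels, read -2.99, -2.96 and -3.19 in the controls, -2.12, -2.10 and -2.03 at 6 h and -0.74, -0.88 and -0.60 at 24 h. It climbed at both times, to 4.96-fold above control (SE 0.13, adjusted p = 2.76e-09, limma). Igf1, the insulin-like growth factor of macrophages and stroma, read 0.01, -0.06 and -0.13, then -1.07, -0.78 and -0.68, then 0.95, 0.88 and 0.93. It fell below every control at 6 h before passing them at 24 h, and a further probe of Igf1 gave a smaller 0.33. Vcam1, the adhesion molecule of stroma and macrophages, followed the same path (2.77, 2.52 and 2.72, then 1.82, 2.15 and 2.29, then 3.45, 3.33 and 3.40). Csf1, the growth factor of macrophages, rose by 0.69 and Ebf3, a factor of Cxcl12-rich stroma, by 0.76. The call of Ebf3 was lost with the mean over all its probes (0.67).

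Secreted BMP, activin and Wnt regulators rose in 11 of 28 tested, 7 without 24 h replicate 3, and fell in 2. Fst, follistatin, which binds activin, read -3.69, -4.18 and -3.94 in the controls and -1.96, -1.73 and -1.49 at 24 h, and Inhba, a chain of activin itself, read 0.53, 0.56 and 0.15 against 1.81, 1.64 and 1.71. Both rose, by 4.62-fold and 2.46-fold. Id2, a target of BMP signals, rose by 0.83. Sfrp2, a secreted Wnt inhibitor of stroma, was at least 2.54-fold higher, since no control was well above background. Col8a1, a short-chain collagen, was the largest rise among 17 collagens, from 1.18, 0.53 and 0.83 to 3.01, 2.62 and 2.81, by 3.91-fold. Only 3 collagens rose and 1 fell, and single arrays moved these counts, to 1 rise without 24 h replicate 3 or control replicate 2. The fall was lost without 24 h replicates 1 or 2 or control replicate 2, and was 2 without control replicate 1 and 5 without control replicate 3. Col16a1, for one, read 0.26, 2.42 and -0.16 on the controls, highest on the array with cartilage and muscle transcript.

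Among other cells of the marrow space, stromal, endothelial and osteoblast genes rose in smaller shares than niche factors, and adipocyte and lipid uptake genes in a larger one. Against the 18.4% of all tested genes that rose, the stromal share was close, the endothelial share somewhat higher and the osteoblast share lower. Without control replicate 2, where 16.7% of all genes rose, the stromal share was higher than that. The endothelial and osteoblast shares were then close to it. Stromal fibroblast and pericyte genes rose in 4 (7 without control replicate 2) and fell in 2 (3 without it) of 21, with Mmp2, a matrix protease, up by 0.98 and Fbln1, a matrix protein, down by 1.05. Endothelial genes rose in 6 (4 without control replicate 2) and fell in 2 of 24, and 16 were not called. Stab2 and Plvap, of sinusoidal vessels, were up by 0.77 and 0.63. Among 21 osteoblast genes only Bglap, which encodes osteocalcin, rose, from 3.38, 2.59 and 3.01 to 5.06, 4.73 and 5.14, a 3.96-fold change. There were 2 rises without 24 h replicate 1 and 4 without control replicate 2. Bglap3, a neighbouring copy that can share probes with Bglap, rose by 2.05. Adipocyte and lipid uptake genes rose in 10 and fell in 1 of 18, the fall being 2 without control replicate 2. Pparg, the master factor of fat cells, rose by 0.81 from 0.56, 0.36 and 0.54, and Fabp4, a fatty acid carrier, by 1.00 from 4.73, 4.64 and 4.71. Plin1, the coat protein of fat droplets, was not well above background on any control and was at least 2.16-fold higher at 24 h, though its arrays spread widely (-1.93, -3.86 and -4.04).

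Genes of cholesterol synthesis and uptake fell together, in 15 of 24 tested with a median of -0.34, while 2 rose (1 without 24 h replicate 1 or control replicate 3). Without control replicate 2 15 fell as well. Dhcr7, the last enzyme of synthesis, read 2.10, 2.02 and 2.08 in the controls, 1.13, 1.40 and 1.38 at 6 h and 1.39, 1.31 and 1.29 at 24 h. Fdps, an enzyme early in the pathway, read 1.99, 2.18 and 2.15 against 1.66, 1.47 and 1.51. The 24 h and control arrays do not overlap in either gene, and the level at 24 h of Dhcr7 lies within the range at 6 h. Mvk, the mevalonate kinase, fell by 0.60.

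Nrf2 targets, which protect against oxidants, rose in 13 and fell in 3 of 24. Beside Hmox1, which belongs to this list too, Cat, the catalase, rose by 0.54, G6pdx, which feeds it reducing power, by 0.51, and Gclm, of glutathione synthesis, by 0.43, whereas Gstm1, a glutathione transferase, fell by 0.41. Chaperone genes fell in 6 of 21, but 3 without 24 h replicate 2 and 2 without 24 h replicate 3, and the single rise was lost without control replicate 1 or any 1 of the 24 h arrays. Against 6 h 13 of the 21 were higher at 24 h. Hspd1, the mitochondrial chaperonin, read 4.60, 4.72 and 4.67 at 6 h and 5.64, 5.38 and 5.33 at 24 h, near its controls at 5.59, 5.61 and 5.76. Immediate early genes rose in 10 and fell in 2 of 23 (1 without 24 h replicate 3 or control replicate 3), with Nr4a1, a nuclear receptor, at 0.45 above control and 0.31 below 6 h.

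Red cell membrane and enzyme genes were higher as a list at 6 h than at 24 h. Of 23 tested 12 rose and 1 fell against control. The rises were 8 to 9 with any 1 array left out (9 without control replicate 2), and the fall was lost without control replicate 1 or 24 h replicate 3. Against 6 h 11 of the 23 were lower at 24 h and 3 higher. The list mean was 4.68, 4.72 and 4.68 in the controls and 5.35, 5.21 and 5.28 at 6 h. At 24 h it was 5.02, 5.04 and 4.97. Bpgm, the enzyme that makes the oxygen-release signal of red cells, read 5.65, 5.67 and 5.36 in the controls and 6.74, 6.56 and 6.84 at 24 h, and Epb41, a protein of the membrane skeleton, rose by 1.07. Car1, a carbonic anhydrase, read 3.61, 3.61 and 3.88, then 3.73, 3.79 and 3.97 at 6 h, then 4.63, 4.48 and 4.45. Of 16 haem synthesis genes 6 rose against control (37.5%, against 18.4% of all genes) and 1 fell. With any 1 array left out there were 4 to 5 rises and 0 to 1 falls. Against 6 h 8 of the 16 were lower and 1 higher. The rises were led by Alas2, the first enzyme of the red cell pathway, at 0.91 (SE 0.08) above control. Its 6 h arrays (8.58, 8.48 and 8.44) overlap those at 24 h (8.53, 8.39 and 8.57). Erfe, the hormone by which red cell precursors call for iron, rose from -2.17, -1.32 and -1.80 to 0.34, -0.25 and -0.61. Trib2, on the list of erythroid regulators, fell by 1.19. That list of 16 had 2 rises and 3 falls, and the rises were 1 without any single array other than control replicate 2. Compared with 6 h, 7 of these 16 were lower at 24 h and 1 higher.

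Beyond the lists, the largest falls against control included Speer3, which was not well above background on any 24 h array and at least 5.73-fold lower, and Sertad4, at least 5.15-fold lower. Gfra1, a growth factor receptor chain, was at least 3.96-fold lower, with a further probe at -1.56. Thrb, a thyroid hormone receptor, read -0.99, -1.09 and -0.82 in the controls and -3.68, -3.57 and -3.65 at 24 h, where 2 of 3 arrays were well above background, and Lgr5, a receptor of Wnt-responsive stem cells in other tissues, fell by 2.25. Alpk3, a kinase of heart and skeletal muscle, is among the largest falls by the same rule, but read -3.28, -0.46 and -3.31 on the controls. With all 3 controls it was at least 3.51-fold lower, but control replicate 2 raises that bound, which does not hold without this array. Alpk3 fell by 2.16 on the log2 scale with control replicate 2 and by 1.21 without it. Its call was lost with the normexp correction (-0.89) and in a fit of the compared arrays alone. Myom2, of the muscle M-band, fell by 2.74 with all arrays (adjusted p = 0.0386, limma) and by 1.17 without control replicate 2, which did not pass (adjusted p = 0.202). It was also not called without any 1 of the 24 h arrays, with the slide as a block (-2.46, adjusted p = 0.0792) or with the replicate block (adjusted p = 0.062). Among further rises, Nxnl2, a thioredoxin-like protein, read -4, -3.79 and -3.85 against -2.16, -1.73 and -1.70, being well above background on 2 of 3 controls.

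The muscle and cartilage lists themselves did not move as a group. Of 26 muscle genes 1 fell, Myom2, and none rose, with a median of -1.30, and without control replicate 2 4 rose and none fell, with a median of 0.51. The number of falls was 8 without control replicate 1, 3 without control replicate 3 and 0 without any 1 of the 24 h arrays. Of 11 cartilage genes none was called, with a median of -2.08, and without control replicate 2 1 rose and the median was 0.13. Without control replicate 1 8 cartilage genes fell, and 1 without control replicate 3.

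The 8 largest falls from 6 h to 24 h were of genes that stood near control at 24 h. Ddx25, a helicase of the germ line, read 3.19, 3.20 and 1.93 in the controls, 7.34, 6.56 and 6.32 at 6 h and 2.85, 2.29 and 2.72 at 24 h. Tgm5, a transglutaminase of the skin, read -2.82, -2.53 and -3.66, then 1.40, 0.96 and 0.66, then -3.20, -3.19 and -2.84. Trim55, Pdpk1, Myo1e, Lifr and Itga1 had the same shape, with falls of 3.59 to 4 from 6 h, and Aqp5 was at least 11.2-fold lower than at 6 h. Aqp5 was not well above background on any control or 24 h array, and the other 7 differed from control by between -0.19 and -0.03, none of which passed. For 4 of them the fall was not shared by other probes of the gene. Further probes of Pdpk1 gave -0.29 and -0.14 between 6 h and 24 h, those of Lifr 0.25, 0.79 and 0.32, those of Myo1e -0.50 and -0.02, and that of Itga1 -0.12. In the other direction, Ica1l, an islet cell autoantigen-like protein, was 2.71 higher at 24 h than at 6 h (0.54, 0.90 and 0.60 against 3.19, 3.42 and 3.56). Gbp8, an interferon-induced GTPase, was 2.59 higher, but a further probe of it gave 0.18.

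The response at 24 h was then set against that of 8-week marrow, by the difference between the 2 responses in the same fit. The comparison uses the same 1-week arrays as above, so it is not independent of the results already given. The responses differed in 5005 genes (42.1%), with 1610 (13.5%) more positive at 1 week and 3395 (28.6%) more negative, of which 149 (1.25%) and 762 (6.41%) were at least 2-fold. The median over all genes was -0.114, so a difference is to be read against that shift, which was -0.059 to -0.096 under 3 other scalings.

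Of the B-lineage lists, 10 of 19 transcription factors and 10 of 19 surface genes had a more positive response at 1 week. For Foxo1 the response was -1.35 at 1 week and -1.89 at 8 weeks, a difference of 0.53 (adjusted p = 0.000851, limma), and for Cd72, a B-cell coreceptor, -0.92 and -2.40 (adjusted p = 5.89e-06). For Rag1 it was -3 and -4.30 (adjusted p = 6.76e-06). Dntt went the other way, with -3.21 at 1 week and -1.79 at 8 weeks, a difference of -1.42 (adjusted p = 4.07e-06). For Vpreb1 the response was -2.26 and -2.22 at the 2 ages, which did not pass (adjusted p = 0.900).

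Several groups responded more negatively at 1 week, with single members of opposite sign at the 2 ages. Of 21 stem and progenitor genes 10 responded more negatively at 1 week, among them Hlf (-0.76 at 1 week, 0.40 at 8 weeks, adjusted p of the difference 4.43e-05, limma) and Cd27 (-1.16 and 0.15, adjusted p = 5.21e-06). Of 17 early granulocyte genes 11 did so, with Mpo at -0.35 and 0.61 (adjusted p = 3.67e-06). Of 17 NK genes 11 did so, with Nkg7 at -0.51 and 0.68 (adjusted p = 2.50e-06) and Gzmb, a granzyme well above background on 2 of 3 arrays at 24 h, at -0.79 and 0.96 (adjusted p = 9.91e-05). Of 24 cholesterol genes 13 did so, with Fdps at -0.56 and 0.31 (adjusted p = 1.46e-05).

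Other groups responded more positively at 1 week. Of 10 class II genes 6 did so, among them Ciita at 0.76 and -0.86 (adjusted p = 6.01e-05, limma) and Cd74 at 0.69 and -0.41 (adjusted p = 1.41e-05). Of 23 red cell genes 17 did so and 1 responded more negatively, with Epb41 at 1.07 and 0.10 (adjusted p = 0.00224) among the 17. Of 18 chemokine receptors 7 did so and 2 responded more negatively. Ackr4 was among those 2, with a difference of -2.33 (-2.54 without control replicate 2). The rises at 1 week included Ccr6 at 1.25 and -0.38 (adjusted p = 3.16e-05) and Cx3cr1 at 0.60 and -0.74 (adjusted p = 7.37e-05). With the mean over all its probes the difference of Cx3cr1 was 0.20 and not called (adjusted p = 0.760). Inhba responded by 1.30 at 1 week and 0.08 at 8 weeks (adjusted p = 2.98e-05), and Adam33, a membrane protease, by 1.87 and -0.48 (adjusted p = 6.76e-06).

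Many interferon, stromal and macrophage genes also responded more negatively at 1 week. Of 37 interferon-stimulated genes 33 responded more negatively, with a median difference of -0.96, and Ifit1 responded by 0.99 at 1 week and 2.40 at 8 weeks (adjusted p = 0.000912, limma). Of 22 chemokine ligands 12 did so. Ccl2 responded by 1.37 and 3.11 (adjusted p = 9.89e-07), Cxcl12 by 0.87 and 1.95 (adjusted p = 0.00117), and Ccl4 by -0.95 and 1.20 (adjusted p = 1.14e-05). Of 20 niche genes 11 did so, with Igf1 at 0.98 and 1.95 (adjusted p = 3.78e-05), while Bmp4, at 2.31 and 2.16, did not pass (adjusted p = 0.548). Of 26 scavenger genes 16 did so, Marco at 1.23 and 3.32 (adjusted p = 1.74e-06), while 3 responded more positively. The differences of that list ranged from -2.48 to 2.71. Among 17 collagens 13 and among 21 stromal genes 14 responded more negatively, with Mmp2 at 0.98 and 2.85 (adjusted p = 8.82e-05). Without control replicate 2, the array with cartilage and muscle transcript, 14 collagens and 14 stromal genes responded more negatively, and 2 collagens responded more positively where none did with all arrays. Mmp2 differed between ages by -1.87 with that array and by -1.58 without it (adjusted p = 3.07e-05). The p53 targets were divided. Of 24 arrest, feedback and repair targets 7 responded more positively at 1 week and 5 more negatively. Leaving out 1 array gave 3 to 8 and 5 to 6. Of 22 death and metabolic targets 3 responded more positively and 7 more negatively. Zmat3 and Ccng1 differed between ages by 0.11 and -0.10, which did not pass (adjusted p = 0.408 and 0.477), whereas Phlda3 responded by 2.61 and 3.36 (adjusted p = 4.59e-05).

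**Figure D4:**
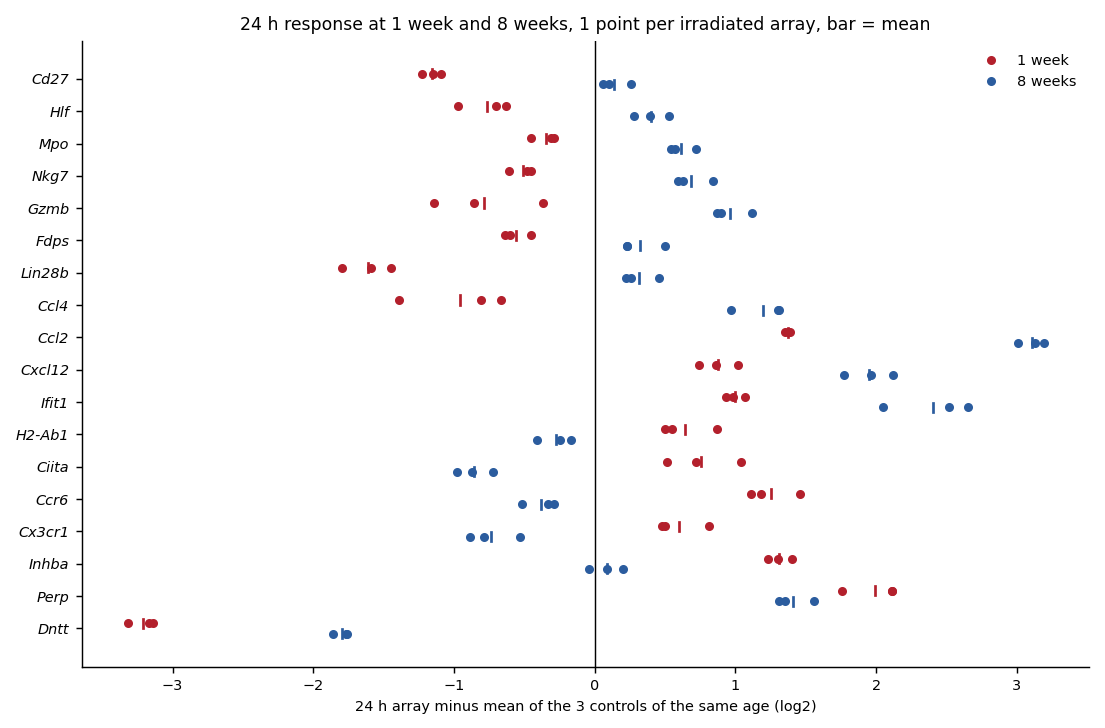
Each 24 h array minus the mean of the 3 controls of its age, as a log2 difference, for 18 genes at 1 week (red) and 8 weeks (blue), 1 point per irradiated array and a bar at the mean. Red and blue points lie on opposite sides of 0 for genes such as Mpo, Fdps and Ccl4, where the 1-week response is negative, and Ciita and Ccr6, where it is positive.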

How the data were processed

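Whole bone marrow RNA was hybridised to 18 1-colour Agilent arrays of mouse probes on 5 slides, and each array was taken as 1 mouse. The deposited array files hold spot intensity, background-subtracted by the authors with Agilent Feature Extraction, version 11.5.1 per the submitters' processing notes and 9.5.1.1 per the file headers, with no scaling between arrays. The labels give no further step. The deposited series table holds log2 values of the same arrays that, compared with the array files, were shifted per array and centred per probe (r of 0.9999 or more with recomputed values, column medians -0.167 to 0.244). It served as an alternative.

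The processed intensity was taken to log2, spots flagged as outliers were dropped, spots of a probe were averaged and the 75th percentile of each array was subtracted. Probe accessions were matched to RefSeq gene symbols (17558 matched), 24844 of 41174 probes received a symbol and the probe with the highest mean stood for its gene. Of 17178 genes 11888 were tested, those that the scanner software marked as above background on every array of 1 group or more. 5287 were too dim and 3 had an outlier spot. limma 3.58.1 in R 4.3.3 was fitted over all 18 arrays with a mean per group and an intensity trend (12 residual and 4.32 prior degrees of freedom), with two-sided p-values. The number of arrays limits the precision. The fit was tested on simulated data. The planned normexp correction needs a mean signal, which these arrays come without, so median signals with an offset of 50 replaced it.

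Where a group was not well above background on any array, a bound was given, from the mean of the brighter group against, per array, the higher of the dimmest detected signal and the probe's own. Named genes were up to 5 per list with the smallest adjusted p, the 15 largest rises and falls without overlap, the 8 largest differences each way in the other comparisons, all called chemokine genes and a fixed few. A list with 5 or fewer called genes could have each named. The members and gene lists were chosen with earlier results of these data known. The alternatives were other scalings, background correction, filters, probe rules, sample sets, array weights, variance model, slide block, replicate block, the series table and leaving out each array.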

Additional observations from a re-analysis of the deposited data

Results flagged for a closer look

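The responses at 24 h differed between 1 and 8 weeks, by the test of that difference, in 5005 genes. The 16 genes named by size are given as the 1-week response minus the 8-week response. Adam33 stood at 2.35 (1.87 at 1 week, -0.48 at 8 weeks), Cd209d, a lectin of macrophages, at 2.26 (1.23 and -1.02) and Chst10, a sulfotransferase well above background on 2 of 3 1-week controls, at 2.21 (1.77 and -0.44). Mageb16 stood at 2.66 (0.94 and -1.72). Ppm1e stood at 2.36, with a 1-week difference of 0.20. For 3 more genes at least 1 group was not well above background on any array, so the fitted difference includes background signal and is no measured size. They are Ido1, the tryptophan-degrading enzyme, at 2.20 (at least 1.42-fold higher at 24 h than in control at 1 week), Cd209b, another lectin of macrophages, at 2.71 (at least 1.21-fold higher) and Dnase1 at 2.59, for which no 1-week control or 24 h array was well above background. With the mean over all its probes Cd209b stood at 0.91 and was not called.

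The genes with the most negative differences all read highest among the 1-week controls on replicate 2, the array with muscle and cartilage transcript. All of them except Sobp were not well above background on any 8-week control, and Bmper on no 24 h array at 1 week either, so these fitted differences include background signal too. Ecrg4 stood at -4.69, with controls at -4.35, 1.73 and -5.39. It was -2.49 without control replicate 2, and its call was lost without any 1 of the 3 24 h arrays at 1 week, the 3 at 8 weeks or 8-week control replicates 2 or 3 (-4.85 to -4.36). The slide as a block ended it as well (-3.41, adjusted p = 0.201), as did the normexp correction (-2.28), no filter on dim genes, a fit of the compared arrays alone and no intensity trend. Nol3 stood at -3.62, with controls at -4.22, 0.20 and -3.79, and at -2.22 without control replicate 2. Bmper stood at -4.14, or -3.24 without that array, and was not called with the mean over all its probes (-1.61). Srpx stood at -3.66 (-3.27 without it), Flvcr2 at -3.65 (-2.91), Galnt16 at -3.59 (-3.12), Sobp at -3.44 (-2.80) and Cspg4 at -3.43 (-2.48). Of these 8 genes only Cspg4 lost its call without control replicate 2, and it did so without 8-week control replicate 1 (-3.19) and with the normexp correction (-1.90) too.

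Among 6317 tested probes without a gene symbol, which no comparison above uses, 846 were higher and 637 lower at 24 h than in the 1-week controls (23.5% called).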

How the results depend on the processing

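The count of genes called against control was 4278, against 6 h 4301 and for the difference between ages 5005. Leaving out each array gave 3320 to 4066, 3380 to 3956 and 4306 to 4844. The slide as a block gave 4281, 3974 and 4565. Deviations from the group mean were compared between same-numbered arrays of different groups, across both ages. Their r was -0.27 to 0.32 over 45 pairs, 8 of them over 0.1. The 3 pairs of 1-week control and 24 h arrays gave -0.25 to 0.32 (median 0.074), too few to show whether the numbers mark pairs. The replicate block gave 3930, 3977 and 4657. No alternative moved these counts by over 1.5 times. Of 4644 values of named genes against control under the alternatives, 4475 kept direction and call, 165 lost the call, 1 gained it and 3 changed sign. Against 6 h 2458 of 2697 kept both, and between ages 3809 of 4124. The sign changes against control were Rps18 (-0.15 under quantile normalization) and Ccnb1, not called, at 0 with array weights and 0.03 without 24 h replicate 3 (lowest -0.14, without 24 h replicate 2). Against 6 h, the mean over all probes of a gene gave -0.05 for Oas2, -0.03 for Adgre1 and -0.26 for Thy1. The cause was not tested. Genes not well above background in a group have only bounds, and their fitted differences include background signal. The planned normexp correction on mean signals was not run.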

Other observations

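Of 18 genes induced by glucocorticoids, among them metallothioneins, 7 rose at 24 h against control and none fell (1 fell without control replicate 3). The rises are 38.9% of the list against 18.4% of all genes, and the median was 0.33, with Hsd11b1, which activates the hormone, up by 0.80 from 2.36, 2.18 and 2.06. Of 16 clock genes 5 rose and 2 fell, with Arntl, the core activator, at -1.93, -1.87 and -1.96 in the controls and -2.60, -2.77 and -2.56 at 24 h. Megakaryocyte and platelet genes did not move as a group. Of 18 tested 3 rose and none fell, 16.7% against 18.4% of all genes, with a median of -0.05. The rises were Selp by 0.71, Thbs1 by 0.66 and P2ry12 by 0.58. Of 16 osteoclast genes 4 rose and 2 fell, and 1 fell without control replicates 1 or 3 or 24 h replicates 2 or 3. Mmp9, a protease that neutrophils share, rose by 0.66.

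Of 15 imprinted and fetal growth genes 4 fell, or 8 without control replicate 1 and 7 without control replicate 3, and 1 rose without 24 h replicate 1. The list mean was -0.10, 1.04 and -0.22 on the 3 controls, highest on replicate 2, the array with muscle and cartilage transcript. Without that array 4 fell as well, and the median went from -0.64 to -0.27. Lin28b, the regulator of fetal blood formation, read -2.07, -2.43 and -2.03 in the controls and -3.63, -3.77 and -3.98 at 24 h, a fall of 1.62 (SE 0.25, adjusted p = 8.38e-05, limma). The 8-week difference was 0.31. Hmga2, a chromatin protein that Lin28b sustains in fetal cells, fell by 1.15. Grb10, an imprinted growth inhibitor, fell by 0.71 and by 0.48 without control replicate 2, on which it read 2.37 against 1.65 and 1.69 on the other controls, and it was not called with the mean over all its probes (-0.39).

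Of 45 respiratory chain genes 2 rose and 7 fell, the falls being 4 without control replicate 2 or 24 h replicates 2 or 3, and 19 were higher at 24 h than at 6 h. Of 50 ribosomal protein genes 5 rose and 3 fell. The rises were 3 without 24 h replicates 1 or 3 and 2 without control replicate 1, and the falls were 7 without 24 h replicate 1.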
